A study of Mus musculus with 6 samples.

Results

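The genes that encode collagen chains were examined in RNA-seq of mouse gastrocnemius (GAS) muscle. Members were chosen by name, as every gene whose symbol is Col, a type number, the letter a and a chain number, which took 44 of the 24532 genes in the count table. The choice was made with earlier results of these data known. Of these, 11 encode fibrillar chains, 6 encode the type IV chains of basement membranes and 27 encode the other types. Levels were compared between 3 libraries labelled WT and 3 labelled *Sirt6* KO, each from 1 animal. All 6 animals were C57BL/6 males of about 20 weeks that carried *Sirt6* flox/flox, and the animals labelled *Sirt6* KO also carried *Myl1-Cre*. Cre in these animals comes from the promoter of a myosin light chain gene of fast muscle fibers, so that fibroblasts and vessel cells, which make most collagen of a muscle, are not the intended site of the deletion.

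A collagen is a trimer of chains that wind into a triple helix. Fibrillar collagens (types I, II, III, V, XI, XXIV and XXVII) pack into the cross-striated fibrils of tendon and of the connective tissue around muscle fibers, type IV forms the sheet-like network of basement membranes around each muscle fiber and capillary, and type VI forms beaded microfilaments between them. Fibril-associated collagens with interrupted helices (FACIT) sit on the surface of fibrils, and a few collagens are transmembrane proteins.

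The counts were whole numbers per gene, which the paper states were obtained with StringTie, with library totals between 44845763 and 63016899. Levels are given as CPM (counts scaled to library size) after TMM normalization, and 1 count was worth between 0.0165 and 0.0212 CPM. *Sirt6*, counted over its whole length, went against the labels: it lay at 2.77, 2.23 and 2.88 CPM in the WT libraries 1, 2 and 3 and at 7.81, 7.44 and 6.68 CPM in the *Sirt6* KO-labelled libraries. Its log2 fold change was 1.48 (SE 0.173), with an edgeR adjusted p of 0.0113, so that every direction below is between libraries as labelled. WT library 3 stood apart from WT libraries 1 and 2, with a summed CPM of 6 slow-fiber genes of 52.3 against 2546 and 2142. The *Sirt6* KO-labelled libraries had 192, 1542 and 320, with library 2 apart from libraries 1 and 3. Calls that change without WT library 3 are given without it as well. In that fit both remaining WT libraries were above every *Sirt6* KO-labelled library in slow-fiber genes. Group and slow-fiber content cannot be told apart there, and the part of slow-fiber content in its calls was not tested.

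Of the 44 collagen genes, 38 had enough counts to be tested. The test was the quasi-likelihood test of edgeR, with p-values adjusted by Benjamini-Hochberg over all 13801 genes tested, and log2 fold changes are *Sirt6* KO relative to WT. At an adjusted p under 0.05, 3 collagen genes were called: *Col24a1*, a minor fibrillar chain, was higher in the *Sirt6* KO-labelled libraries, and *Col4a1*, a main chain of basement membranes, and *Col14a1*, a FACIT chain, were lower. The share called among all genes tested was 16.2% (7.85% higher and 8.39% lower), against 7.89% of the tested collagen genes. The 2 groups of 3 libraries did not overlap for 12 of the 38, 8 of them higher and 4 lower in the *Sirt6* KO-labelled libraries, against 40.0% of all genes tested (20.3% higher and 19.6% lower). The median log2 fold change of the 38 was 0.06, with 17 below 0 and 21 above, and that of all genes tested was -0.02. With a correction for GC content the median of the collagen genes was -0.18 and that of all genes -0.01. The shares called at an adjusted p under 0.05 were then 7.89% of the tested collagen genes and 6.83% of all genes. The lower share among collagen genes thus depends on the fit. Over all genes tested, GC content and log2 fold change had a Spearman correlation of 0.332.

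By class, the 11 fibrillar genes had a median log2 fold change of 0.33 and 1 call, which was higher. The 6 type IV genes had a median of 0.21 and 1 call, which was lower. Among the other types 21 genes were tested, with a median of 0.05 and 1 call, which was lower. The GC correction turned the median of the other types to -0.22, with 0.18 for fibrillar and 0.14 for type IV genes. At a rule of more than 2-fold and p under 0.05 before adjustment, *Col24a1* and *Col2a1* were higher and *Col9a1* was lower, where 7.83% of all genes tested passed (3.14% higher and 4.69% lower). Without WT library 3 the calls at an adjusted p under 0.05 numbered 3 higher (*Col24a1*, *Col7a1* and *Col19a1*) and 4 lower (*Col4a1*, *Col14a1*, *Col12a1* and *Col8a1*), or 17.5% of the 40 collagen genes then tested, against 32.5% of all genes then tested. Without WT library 1, without *Sirt6* KO library 1 or without *Sirt6* KO library 3, edgeR called 0 collagen genes and 440, 8 and 13 genes in all. At a p under 0.05 before adjustment, 4 lower and 6 higher collagen genes passed with all libraries (10 of 38, where 35.3% of all genes tested passed). Without WT library 1 these were 2 lower and 11 higher, without *Sirt6* KO library 1 they were 3 and 5, and without *Sirt6* KO library 3 they were 2 and 3. The share of all genes that passed before adjustment in those 3 fits is not given, so these counts cannot be set against a background.

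**Figure D1:**
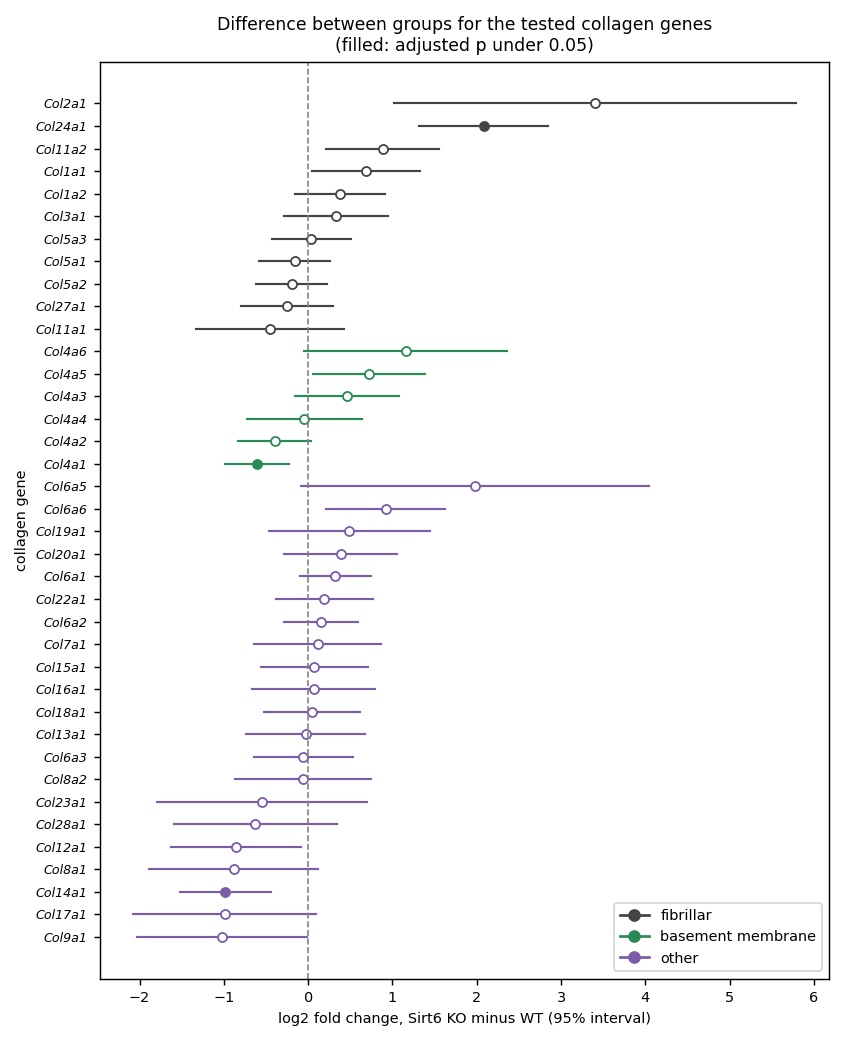
Log2 fold change (*Sirt6* KO minus WT, horizontal axis) with its 95% interval for each of the 38 tested collagen genes (vertical axis), coloured by class, with filled points at an adjusted p under 0.05. Only *Col24a1* at 2.08, *Col4a1* at -0.61 and *Col14a1* at -0.98 are filled, and the widest intervals belong to genes of few counts such as *Col2a1* and *Col6a5*.

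The promoter window of *Col24a1* is shown because this was the one collagen gene called higher, and the windows of *Col4a1* and *Col4a2* because these genes start head to head and share bases. Windows are the RefSeq sequence of GRCm38.p6 from 250 bases before to 50 bases after the gene's start, and 35 of the 44 members had one. Capitals mark a cAMP response element, TGACGTCA, in *Col24a1* and the 78 bases that lie in both windows in *Col4a1* and *Col4a2*. The windows are chr3:145292222-145292521 on the plus strand for *Col24a1*, chr8:11312777-11313076 on the minus strand for *Col4a1* and chr8:11312555-11312854 on the plus strand for *Col4a2*.
Col24a1: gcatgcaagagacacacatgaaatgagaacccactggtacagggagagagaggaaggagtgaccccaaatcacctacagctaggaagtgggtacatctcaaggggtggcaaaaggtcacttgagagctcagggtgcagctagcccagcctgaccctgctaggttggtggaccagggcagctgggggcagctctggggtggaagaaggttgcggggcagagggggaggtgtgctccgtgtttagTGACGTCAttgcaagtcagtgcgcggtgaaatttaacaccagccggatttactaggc
Col4a1: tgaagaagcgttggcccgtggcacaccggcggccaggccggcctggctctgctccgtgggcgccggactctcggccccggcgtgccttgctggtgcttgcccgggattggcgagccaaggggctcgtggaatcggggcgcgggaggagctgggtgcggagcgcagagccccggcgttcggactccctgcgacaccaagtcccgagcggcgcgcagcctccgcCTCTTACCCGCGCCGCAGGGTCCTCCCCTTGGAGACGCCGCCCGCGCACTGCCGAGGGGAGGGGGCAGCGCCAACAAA
Col4a2: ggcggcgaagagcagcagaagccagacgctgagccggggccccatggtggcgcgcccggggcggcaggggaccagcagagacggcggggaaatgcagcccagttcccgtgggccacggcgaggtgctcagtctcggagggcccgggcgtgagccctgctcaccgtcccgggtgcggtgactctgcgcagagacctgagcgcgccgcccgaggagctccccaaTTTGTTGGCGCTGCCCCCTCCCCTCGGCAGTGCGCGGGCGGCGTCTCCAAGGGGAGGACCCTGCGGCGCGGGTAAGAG

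The element in *Col24a1* runs from 7 bases before the annotated start to the first transcribed base (chromosome 3, 145292465 to 145292472). This is the palindrome bound by CREB family factors, whose binding was not measured here. Of the 35 collagen windows, 1 held TGACGTCA (2.86%), against 2.03% of the 27025 windows of all genes. Its core TGACG, searched on both strands and contained in the full element, was in 4 collagen windows (11.4%: *Col24a1*, *Col4a5*, *Col7a1* and *Col11a2*), against 23.0% of all. GGGCGG, the GC box, was in 22 of the 35 (62.9%) on either strand, against 38.2% of all windows. CCAAT was in 13 (37.1%) against 41.1%, and TATAAA in 5 (14.3%) against 15.7%. The starts that these windows use for *Col4a1* and *Col4a2* (11312826 and 11312805) lie 21 bases apart. The annotated span of *Col4a1* begins further upstream, at 11312889, and overlaps that of *Col4a2* by 85 bases. RefSeq also places noncoding genes that are not rows of the table within the spans of *Col4a1* (Gm15418 and Gm32709), *Col14a1* (Gm52209 and the pseudogene Gm18787) and *Col24a1* (Gm35133).

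Many but not all collagen genes hold a second sequence feature that the choice by name did not use, a match to the seed of the miR-29 family. This family holds microRNAs known for binding collagen messages. The mature sequences are given to show the seed (bases 2 to 8, in capitals), which is the same in all 3.
mmu-miR-29a-3p: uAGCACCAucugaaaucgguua
mmu-miR-29b-3p: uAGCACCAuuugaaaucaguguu
mmu-miR-29c-3p: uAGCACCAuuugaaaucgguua

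The matching site, TGGTGCT, was in the 3′ UTR of 25 of the 43 collagen genes with an annotated 3′ UTR (58.1%), against 2707 of 20930 genes (12.9%), with a median 3′ UTR length of 1049 bases in the collagen genes and 935 bases in all. All 6 type IV genes, 9 of the 11 fibrillar genes and 10 of 26 genes of the other types held at least 1 site. The first site of 4 members is shown with the site in capitals, because these members were the 2 called genes that hold a site and 2 of the most abundant fibrillar genes. *Col1a2*, which was more abundant than *Col1a1*, and the called gene *Col14a1* held no site. They lie at chr3:145551195-145551217 on the plus strand (*Col24a1*), chr8:11199761-11199783 on the minus strand (*Col4a1*), chr11:94952523-94952545 on the plus strand (*Col1a1*) and chr1:45348967-45348989 on the plus strand (*Col3a1*), all in GENCODE M21 on GRCm38.
Col24a1: ccttttggtgttgctTGGTGCTg
Col4a1: gccaccgtcacaacaTGGTGCTa
Col1a1: gtgggaaggaatttcTGGTGCTa
Col3a1: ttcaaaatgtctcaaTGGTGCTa

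The 23 tested collagen genes with a site had a median log2 fold change of 0.06 and the 14 without a site 0.15. Among all genes tested the medians were -0.07 with a site and -0.01 without. *Col24a1* and *Col4a1*, which were called in opposite directions, each hold 1 site. The microRNAs themselves were not measured.

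Per length, in TPM (reads scaled to gene length and to a fixed sum per library) as deposited, the most abundant collagen genes were *Col3a1* (mean of 6 libraries 58.7), *Col1a2* (55.0), *Col4a1* (43.5), *Col4a2* (31.7) and *Col1a1* (27.8), followed by *Col6a1* (26.1) and *Col6a2* (25.2). Those are the chains of the interstitial fibrils, of the basement membrane and of the microfilaments that link them. *Col22a1*, the collagen of the muscle-tendon junction, was the eighth at 10.3 TPM. *Col24a1* was the fourteenth at 7.34 TPM over all 6 libraries. Its mean was 3.04 ± 1.37 TPM in WT and 11.6 ± 3.06 TPM in the *Sirt6* KO-labelled libraries (SD, n = 3), the latter above the 10.6 ± 4.18 TPM of *Col22a1* in the same libraries by less than their spread. The 6 genes below the filter were *Col9a2*, *Col9a3*, *Col10a1*, *Col6a4*, *Col25a1* and *Col26a1*, with at most 16 counts in any library, and none was tested. *Col9a3* had counts of 8, 12 and 9 in WT against 6, 5 and 3, and was lower in every *Sirt6* KO-labelled library on the CPM scale.

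**Figure D2:**
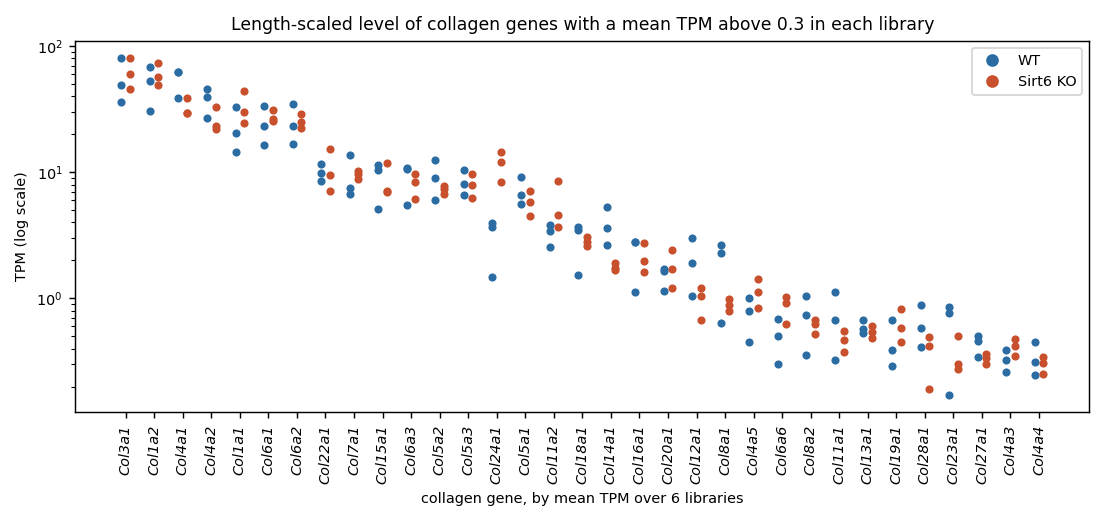
Level of the 33 collagen genes with a mean TPM above 0.3 in each of the 6 libraries, in TPM on a log scale (vertical axis), ordered by the mean over all libraries (horizontal axis). Levels run from *Col3a1* at a mean of 58.7 TPM down to *Col4a4* at 0.321 TPM, and the 2 groups stand furthest apart at *Col24a1*.

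*Col24a1* (chromosome 3, 145292472 to 145552013) encodes the chain of type XXIV collagen, a fibrillar collagen best known from developing bone. It lay at 10.9, 12.6 and 5.44 CPM in WT libraries 1, 2 and 3 (counts 544, 596 and 312) and at 49.2, 30.1 and 43.5 CPM in the *Sirt6* KO-labelled libraries (counts 2882, 1823 and 2397). The groups did not overlap, and the lowest *Sirt6* KO library was above the highest WT library. Its mean was 9.66 ± 3.76 CPM against 40.9 ± 9.84 CPM (SD, n = 3), 4.24-fold higher. The log2 fold change was 2.08 (SE 0.327, 95% interval 1.32 to 2.85), with an edgeR adjusted p of 0.0143. Without WT library 3, where the gene was lowest, it was 1.80 (edgeR adjusted p = 0.00572), and without WT library 1, *Sirt6* KO library 1 or *Sirt6* KO library 3 the edgeR adjusted p was 0.0511, 0.0612 and 0.0723. The summed CPM of 4 markers of satellite cells, the stem cells of muscle, was 18.4, 18.8 and 25.4 in WT and 45.1, 33.5 and 41.9 in the *Sirt6* KO-labelled libraries. Of these 4 markers, *Pax7*, *Myf5* and *Cdh15* were higher, with log2 fold changes of 1.28, 1.33 and 0.97 and edgeR adjusted p of 0.0299, 0.0225 and 0.0243, and none of the 4 was at 0. *Pax7*, *Myf5* and *Cdh15* were called under 5, 8 and 7 of 9 other settings and under 1, 2 and 2 of 6 omissions. *Calcr* was at 1.64, 1.72 and 0.890 CPM in WT against 0.786, 0.726 and 1.23 CPM (log2 fold change -0.63), with overlapping groups and no call. The part of satellite cell content in the *Col24a1* result was not tested.

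The major fibrillar chains were not called. *Col1a1*, the chain that makes up most of the type I trimer, was at 81.6, 53.4 and 44.4 CPM in WT and at 126, 72.9 and 90.0 CPM in the *Sirt6* KO-labelled libraries. WT library 1 lay within the *Sirt6* KO range, so the groups overlapped. Its log2 fold change was 0.69 (SE 0.273, 95% interval 0.05 to 1.32, edgeR adjusted p = 0.122). *Col1a2*, its partner in the trimer, was at 149, 121 and 83.1 CPM against 181, 129 and 149 CPM, with a log2 fold change of 0.38 (95% interval -0.15 to 0.91, edgeR adjusted p = 0.273). *Col3a1*, the homotrimer of distensible tissue, was at 186, 120 and 103 CPM against 215, 128 and 170 CPM, with a log2 fold change of 0.33 (95% interval -0.29 to 0.94, edgeR adjusted p = 0.407). In all 3 genes the groups overlapped, WT library 1 was the highest WT library and *Sirt6* KO library 1 the highest of all. Fewer cells of a type and less RNA per cell cannot be told apart in bulk tissue, here and in what follows.

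Type V and type XI chains join the fibrils of types I and II and set their diameter. *Col5a1* was at 31.9, 24.8 and 24.3 CPM in WT and at 28.7, 19.2 and 24.6 CPM in the *Sirt6* KO-labelled libraries, and *Col5a2* at 34.4, 26.4 and 20.8 CPM against 24.4, 22.5 and 24.5 CPM. Both overlapped between groups, with log2 fold changes of -0.16 (95% interval -0.58 to 0.26) and -0.19 (95% interval -0.61 to 0.23). *Col5a3* had a log2 fold change of 0.04, *Col11a1* of -0.45 and *Col27a1* of -0.25, none of them called. *Col11a2*, which is on the edge of the calls, was at 9.36, 11.0 and 8.69 CPM against 26.6, 14.9 and 12.1 CPM. Its groups did not overlap, *Sirt6* KO library 1 was far above the other libraries, and the log2 fold change of 0.88 (95% interval 0.22 to 1.55) had an edgeR adjusted p of 0.0737. With the GC correction the log2 fold change was 0.60 (edgeR adjusted p = 0.204), and without *Sirt6* KO library 1 it was 0.48. *Col11a2* was called under 1 of 9 other settings and 0 of 6 omissions. *Col2a1*, the main collagen of cartilage, was near the detection limit with counts of 4, 0 and 0 in WT and 26, 12 and 14 in the *Sirt6* KO-labelled libraries. Its fitted log2 fold change of 3.41 had a 95% interval of 1.02 to 5.79 and an edgeR adjusted p of 0.0609, and rests on those few counts.

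**Figure D3:**
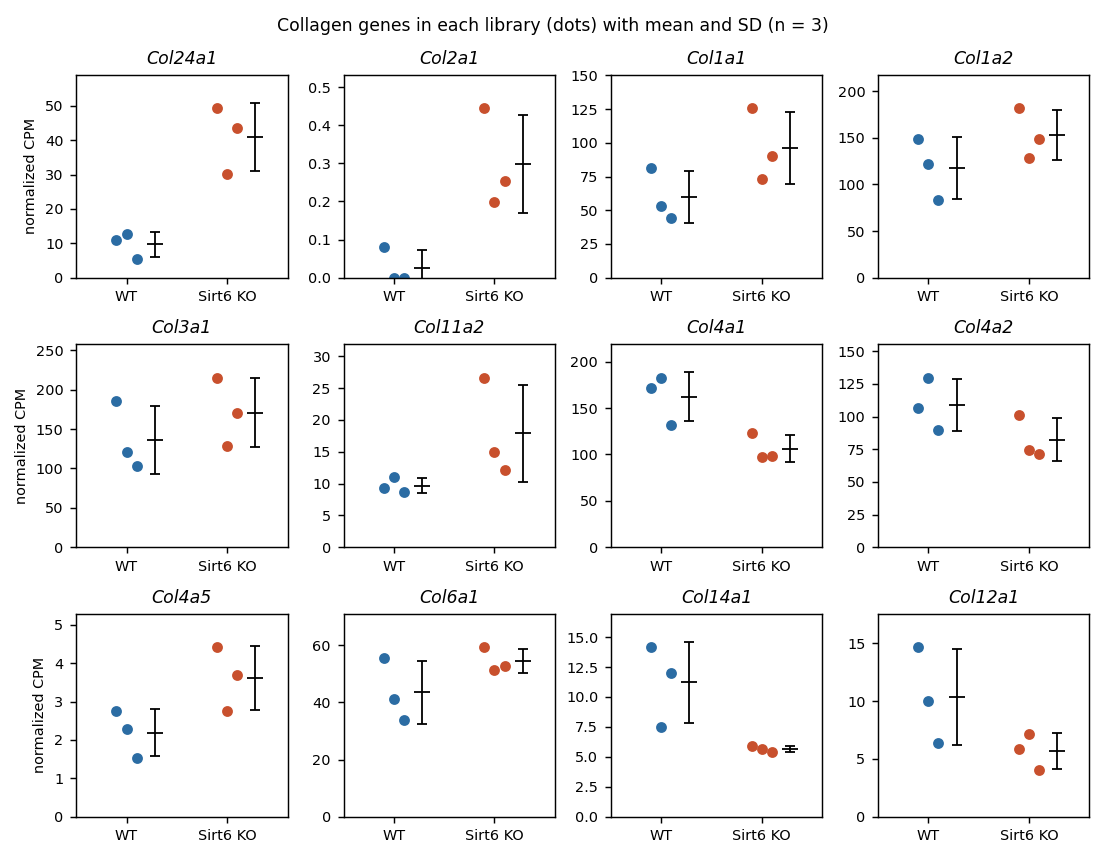
Normalized CPM (vertical axes, each from 0) of 12 collagen genes in each WT and *Sirt6* KO library (dots, libraries 1 to 3 from left to right), with the mean and SD beside them (n = 3). The groups are apart for *Col24a1* (5.44 to 12.6 against 30.1 to 49.2 CPM), *Col2a1*, *Col11a2*, *Col4a1*, *Col4a5* and *Col14a1*, and overlap for *Col1a1*, *Col1a2*, *Col3a1*, *Col4a2*, *Col6a1* and *Col12a1*.

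Among the FACIT genes, *Col14a1* (chromosome 15, 55307644 to 55520803), whose protein coats fibrils in tendon, skin and muscle, was lower. Its level was 14.1, 7.53 and 12.0 CPM in WT and 5.89, 5.69 and 5.43 CPM in the *Sirt6* KO-labelled libraries. The *Sirt6* KO libraries lay close together and below every WT library, of which library 2 was the nearest. The mean was 11.2 ± 3.37 against 5.67 ± 0.234 CPM, and the log2 fold change was -0.98 (SE 0.230, 95% interval -1.52 to -0.45), with an edgeR adjusted p of 0.0321. The call held without WT library 2 (edgeR adjusted p = 0.0394) and without WT library 3 (-0.93, edgeR adjusted p = 0.0373) and was lost when any of the other 4 libraries was left out, with log2 fold changes from -1.01 to -0.77. *Col12a1*, a related fibril coat protein of tendon and muscle, had 14.6, 9.97 and 6.39 CPM against 5.88, 7.14 and 4.03 CPM, with a log2 fold change of -0.86 (95% interval -1.63 to -0.09, edgeR adjusted p = 0.112). Its groups overlapped through WT library 3, and without that library the log2 fold change was -1.11 with an edgeR adjusted p of 0.0270.

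*Col22a1*, the most abundant FACIT gene and a component of the muscle-tendon junction, was at 25.4, 31.5 and 27.1 CPM in WT and at 44.6, 29.3 and 22.1 CPM in the *Sirt6* KO-labelled libraries. The *Sirt6* KO libraries were both the highest and the lowest, with a log2 fold change of 0.19 (95% interval -0.38 to 0.76, edgeR adjusted p = 0.606). *Col9a1*, a chain of type IX collagen of cartilage, had counts of 35, 34 and 39 against 10, 27 and 23, without overlap, and a log2 fold change of -1.02 (edgeR adjusted p = 0.139). *Col16a1*, *Col19a1* and *Col20a1* had log2 fold changes of 0.06, 0.49 and 0.39, all with overlapping groups and no call. *Col9a2* and *Col9a3* were below the filter.

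The type IV genes lie in 3 head-to-head pairs, and 1 of the 6 genes was called. *Col4a1* and *Col4a2*, on chromosome 8, encode the trimer found in all basement membranes. *Col4a1* (11198423 to 11312889) was at 172, 182 and 132 CPM in WT and at 123, 97.2 and 98.6 CPM in the *Sirt6* KO-labelled libraries. Every *Sirt6* KO library lay below every WT library, and the gap was smallest between *Sirt6* KO library 1 and WT library 3. The means were 162 ± 26.6 and 106 ± 14.8 CPM, 1.52-fold higher in WT, and the log2 fold change was -0.61 (SE 0.163, 95% interval -0.99 to -0.23), with an edgeR adjusted p of 0.0455. Without WT library 3 it was -0.73 (edgeR adjusted p = 0.0107). That was the one omission under which *Col4a1* was called, and the other 5 gave log2 fold changes between -0.73 and -0.51.

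*Col4a2* (11312805 to 11449287) was at 107, 130 and 89.8 CPM against 101, 74.7 and 71.6 CPM. *Sirt6* KO library 1 lay within the WT range, and the log2 fold change of -0.40 (SE 0.186, 95% interval -0.83 to 0.04) had an edgeR adjusted p of 0.169. Where the counting ignores strand, reads in the overlap of *Col4a1* and *Col4a2* cannot be told apart, and the strand setting is not given in the sources used here. *Col4a5*, on the X chromosome beside *Col4a6* and part of the minor type IV networks, was at 2.75, 2.29 and 1.54 CPM against 4.41, 2.75 and 3.69 CPM. Its *Sirt6* KO libraries were all above WT, the lowest of them by a small margin, and the log2 fold change of 0.72 (95% interval 0.06 to 1.39) had an edgeR adjusted p of 0.117. *Col4a6*, with counts of 13, 5 and 16 against 22, 23 and 39, had a log2 fold change of 1.16 (edgeR adjusted p = 0.154). *Col4a3* and *Col4a4*, the pair on chromosome 1, had log2 fold changes of 0.46 and -0.04, at means below 2 CPM in both groups.

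Markers of the vessel cells that lay down type IV collagen were compared with *Col4a1* by library. The summed CPM of 7 endothelial markers was 315, 361 and 177 in WT and 198, 213 and 204 in the *Sirt6* KO-labelled libraries, with none of the 7 called and none at 0. *Pecam1* and *Cdh5*, the most abundant of them, had log2 fold changes of -0.70 and -0.06. Without WT library 3, 4 of the 7 were called lower, *Pecam1* among them (-0.93, edgeR adjusted p = 0.00497), where 32.5% of all genes were called. Mural cells line the outside of small vessels, and the sum of 7 mural markers was 427, 500 and 215 against 231, 239 and 208, with *Rgs5* lower (log2 fold change -1.10, edgeR adjusted p = 0.0481) and none at 0. *Rgs5* was called under 4 of 9 other settings and 1 of 6 omissions, and without WT library 3 the mural list had 4 genes lower and 1 higher. WT library 3 was below all 3 *Sirt6* KO libraries in the endothelial sum but above all 3 in *Col4a1*. In WT libraries 1 and 2, both sums were above every other library, as was *Col4a1*. The part of the vessel cell content in the *Col4a1* result was not tested.

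**Figure D4:**
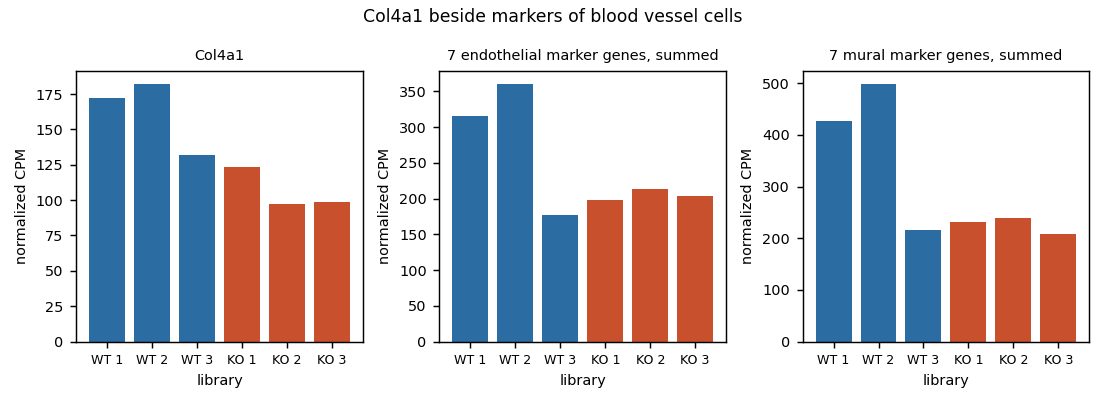
Normalized CPM (vertical axes, from 0) of *Col4a1*, of 7 endothelial markers summed and of 7 mural markers summed in each of the 6 libraries (horizontal axes, WT blue, *Sirt6* KO orange). WT library 3 has 132 CPM of *Col4a1*, above the 97.2 to 123 CPM of the *Sirt6* KO libraries, and 177 CPM of endothelial markers, below their 198 to 213 CPM.

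Type VI collagen, whose loss causes congenital muscle disease, is a trimer of the *Col6a1*, *Col6a2* and *Col6a3* chains. *Col6a1* was at 55.4, 41.1 and 34.0 CPM in WT and at 59.2, 51.3 and 52.8 CPM in the *Sirt6* KO-labelled libraries. *Col6a2* was at 56.0, 40.5 and 34.0 CPM against 53.0, 43.8 and 48.4 CPM, and *Col6a3* at 40.4, 47.6 and 25.8 CPM against 36.9, 28.1 and 44.3 CPM. All 3 overlapped between groups, and none was called, with log2 fold changes of 0.32 (95% interval -0.10 to 0.75), 0.15 (95% interval -0.28 to 0.59) and -0.06 (95% interval -0.64 to 0.53). The minor type VI chains lie side by side on chromosome 9. Both tested ones were apart between groups, as were 40.0% of all genes tested, and neither was called. *Col6a6* had 2.06, 1.59 and 1.12 CPM against 3.11, 2.24 and 3.67 CPM (log2 fold change 0.92, 95% interval 0.22 to 1.62, edgeR adjusted p = 0.0764). *Col6a5* had counts of 0, 19 and 16 against 77, 34 and 46 (log2 fold change 1.98, edgeR adjusted p = 0.154). *Col6a4* had 2 counts in all 6 libraries together.

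The remaining types gave no call. *Col15a1* and *Col18a1*, the multiplexins of basement membrane zones, had log2 fold changes of 0.07 and 0.05 and overlapped between groups. *Col7a1*, the collagen of anchoring fibrils, was at 64.7 CPM in WT library 3 against 28.8 and 27.6 CPM in WT libraries 1 and 2, and at 38.6, 44.9 and 47.8 CPM in the *Sirt6* KO-labelled libraries. Its log2 fold change was 0.11 with all libraries and 0.64 (edgeR adjusted p = 0.0120) without WT library 3. *Col8a1*, a short-chain network collagen of vessels, had 4.89, 6.04 and 1.69 CPM against 1.96, 2.57 and 2.29 CPM, with a log2 fold change of -0.88 (edgeR adjusted p = 0.185), and without WT library 3 of -1.26 (edgeR adjusted p = 0.00803). In both genes WT library 3 lay on the far side of the *Sirt6* KO range from the other WT libraries. The log2 fold change was -0.06 in *Col8a2* and -0.63 in *Col28a1*. Among the transmembrane collagens, *Col13a1*, which is found at the neuromuscular junction, had a log2 fold change of -0.03, *Col23a1* of -0.55 and *Col17a1* of -0.99, the latter on 7 to 20 counts per library.

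Chains of 1 collagen type are built into the same trimer, and the ratio of their TPM within a library does not depend on library size. Of 5 such ratios, 3 did not overlap between groups. *Col1a1* to *Col1a2* was 0.483, 0.388 and 0.471 in WT and 0.609, 0.499 and 0.533 in the *Sirt6* KO-labelled libraries. *Col4a1* to *Col4a2* was 1.57, 1.37 and 1.43 against 1.19, 1.27 and 1.34, and *Col6a1* to *Col6a2* was 0.967, 0.993 and 0.978 against 1.09, 1.15 and 1.06. The log2 differences were 0.29, -0.20 and 0.16. Each had a p of 0.1 in a two-sided exact permutation test, the smallest that 3 libraries against 3 allow, and 0.167 after Benjamini-Hochberg adjustment over the 5 ratios. *Col5a1* to *Col5a2* overlapped (means 0.797 and 0.796, exact permutation p = 1.0), as did *Col6a3* to *Col6a2* (means 0.366 and 0.318, exact permutation p = 0.5).

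The summed TPM of all 44 genes was 458, 368 and 251 in WT and 441, 299 and 337 in the *Sirt6* KO-labelled libraries, with means of 359 and 359, and overlapped between groups. Fibrillar genes took 48.6%, 41.5% and 42.1% of it in WT and 56.1%, 50.4% and 54.7% in the *Sirt6* KO-labelled libraries. Type IV genes took 22.7%, 29.6% and 26.6% against 16.9%, 18.0% and 15.9%. The other types took 29.7% ± 1.47 and 29.3% ± 2.22 (SD, n = 3). The groups did not overlap in the fibrillar share or in the type IV share, while the share of the other types did. The sums behind both shares overlapped: fibrillar genes had 222, 153 and 105 TPM in WT against 247, 151 and 185 TPM, and type IV genes 104, 109 and 66.5 TPM against 74.2, 53.9 and 53.7 TPM. The shares add up to a fixed sum, so that they do not move independently. *Col24a1* alone took 0.800%, 1.08% and 0.587% in WT and 3.28%, 2.80% and 3.58% in the *Sirt6* KO-labelled libraries. The 3 genes *Col1a1*, *Col1a2* and *Col3a1* took 35.0% ± 4.05 and 42.8% ± 2.60, and *Col4a1* with *Col4a2* 25.9% ± 3.44 and 16.4% ± 1.11. No test was made on these shares.

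**Figure D5:**
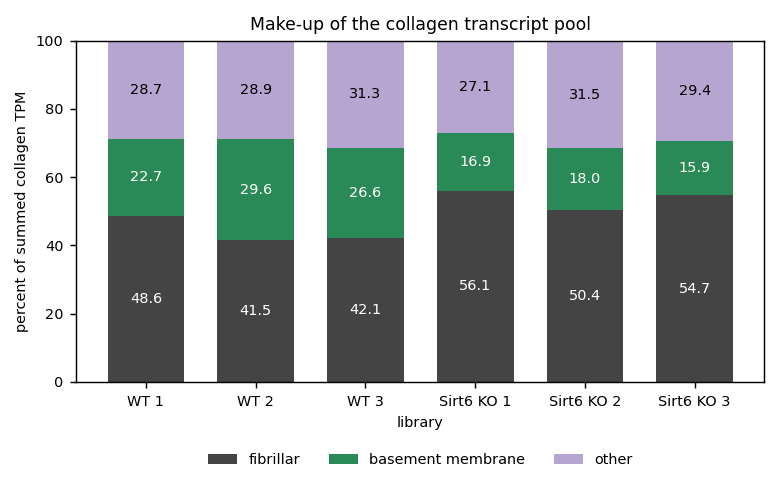
Percent of the summed collagen TPM (vertical axis) taken by fibrillar, type IV (basement membrane) and other collagen genes in each of the 6 libraries (horizontal axis). The fibrillar share is 41.5 to 48.6% in WT and 50.4 to 56.1% in the *Sirt6* KO libraries, and the basement membrane share 22.7 to 29.6% and 15.9 to 18.0%.

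Of 103 genes listed for their work on collagen, 94 were tested, and 7 were lower and 4 higher (11.7%, against the 16.2% of all genes), with a median log2 fold change of -0.13. Of 18 genes that modify and fold the chains, 2 were lower. *Plod2*, the lysyl hydroxylase that prepares chains for crosslinking, was at 7.46, 10.1 and 4.19 CPM in WT and at 1.32, 1.85 and 1.18 CPM in the *Sirt6* KO-labelled libraries, without overlap (log2 fold change -2.32, edgeR adjusted p = 0.0137). *P4ha1*, the prolyl hydroxylase that stabilises the helix, was at 138, 76.4 and 83.6 CPM against 54.1, 60.3 and 52.5 CPM, also without overlap (-0.83, edgeR adjusted p = 0.0453). Of 7 secretion genes, *Ctage5* was lower (-0.51, edgeR adjusted p = 0.0229). Of 12 genes that cut propeptides and crosslink fibrils, *Lox*, the lysyl oxidase that forms the crosslinks, was lower, at 20.7, 23.3 and 14.6 CPM against 6.39, 11.1 and 7.90 CPM (-1.21, edgeR adjusted p = 0.0234). *Plod2* was called under all 9 other settings and 4 of 6 omissions, and *P4ha1* under 3 of 9 and 1 of 6. The other pathway calls each held under 1 or 2 of 6 omissions. Without WT library 3 the lists had 25 genes lower and 8 higher, in a fit that called 32.5% of all genes tested.

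Outside the cell, the 16 fibril-associated proteins had a median log2 fold change of -0.50 and 1 call. *Aspn*, a small proteoglycan that binds fibrils, was lower at 40.7, 40.1 and 16.8 CPM in WT against 9.09, 9.75 and 7.75 CPM (-1.87, edgeR adjusted p = 0.0166). Among 12 genes of breakdown and its inhibitors, *Mmp9*, a gelatinase (log2 fold change 1.42, edgeR adjusted p = 0.0339), and *Pepd*, which frees proline from collagen peptides (0.79, edgeR adjusted p = 0.0138), were higher. Among 11 collagen receptors, the integrin genes *Itga1* (log2 fold change -0.87, edgeR adjusted p = 0.0418) and *Itga10* (-1.34, edgeR adjusted p = 0.0424) were lower. The receptor kinase gene *Ddr1* was higher (0.52, edgeR adjusted p = 0.0365), and the receptor list had a median of -0.51. With the GC correction the median was -0.30 for the receptors and -0.34 for the fibril-associated proteins. The receptor list then gave 1 call, which was lower, where 6.83% of all genes were called. Of 19 genes of TGF-beta signalling, which drives collagen expression in fibrosis, only *Ltbp3*, which tethers the latent factor, was called (0.78, edgeR adjusted p = 0.0167).

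Markers of 10 cell and fiber types, some of them makers of collagen, gave 6 calls among 63 genes, those of satellite and mural cells included. This was 9.52%, against 16.2% of all genes tested. The 10 fibroblast markers summed to 1569, 1178 and 1004 CPM in WT and to 1008, 1367 and 1324 CPM in the *Sirt6* KO-labelled libraries, with 1 call, *Ly6a* (log2 fold change -0.83, edgeR adjusted p = 0.0347). Without WT library 3, 4 of the fibroblast markers and 2 of the tenocyte markers were called lower, where 32.5% of all genes tested were called. The 6 tenocyte markers summed to 257, 197 and 152 CPM against 209, 274 and 185 CPM with no call, *Fmod* and *Thbs4* being the most abundant (0.20 and 0.10). Both sums overlapped between groups, and no marker of either list was at 0. Macrophage markers summed to 27.3 to 54.5 against 32.0 to 37.7 CPM and adipocyte markers to 121 to 223 against 151 to 210 CPM, with no call. Their most abundant members were *C1qa* and *Csf1r* (log2 fold changes -0.44 and 0.19) and *Fabp4* and *Adipoq* (-0.01 and 0.81). The 6 fast-fiber genes, which define the tissue, were far more abundant, at 123905 to 192985 CPM in WT and 182459 to 206515 CPM in the *Sirt6* KO-labelled libraries, and neither they nor the 6 slow-fiber genes gave a call. Without WT library 3, 4 of the fast-fiber genes were higher and 1 lower, again beside 32.5% of all genes tested. *Acta1* and *Tnnt3* of the fast list had log2 fold changes of 0.50 and 0.01, and *Myl2* and *Tnnt1* of the slow list -1.42 and -1.41.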

How the data were processed

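RNA-seq of 6 gastrocnemius libraries, 3 labelled WT and 3 labelled *Sirt6* KO, was analysed from 1 gene table on mm10. The authors deposited raw read counts per gene, FPKM values scaled to gene length and library size, and TPM values scaled to a fixed sum per library. Reads were paired ends of 100 bp. The submitters' processing notes name HISAT2 2.1.0, Bowtie2 2.3.4.1 and StringTie 2.1.3b, and a reporting summary names STAR. The labels name a stranded TruSeq kit and the methods another kit, and 2 different sources of the *Sirt6* flox allele are stated. The strand setting of the counting is not given in the sources used here, so antisense reads may be included.

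Counts of all genes were fitted in R 4.3.3 with edgeR 4.0.16 (filterByExpr, TMM, quasi-likelihood test, group as the only factor) and adjusted by Benjamini-Hochberg over the 13801 genes tested. A total of 24462 gene identifiers matched RefSeq. Ratios of TPM were compared by two-sided exact permutation tests. Alternatives were DESeq2 1.42.0, its size factors, 2 filters, limma 3.58.1 on FPKM taken as log2 with a pseudocount of 1 or 0.1 and quantile-normalized, a block for the replicate number, a GC correction (lowess span 0.3, GC known for 97.2% of genes tested), both together, and each library left out in turn. The members and lists were chosen with earlier results of these data known. Per-library values are given for called collagen genes, the 3 most abundant of each class, the chains in the ratios and, by choice after their values were seen, members near the threshold. From each other list, called genes of the smallest adjusted p are named, or the most abundant where none was called. One marker gene and the sum of its list are not reported here.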

Additional observations from a re-analysis of the deposited data

How the results depend on the processing

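*Col24a1* was called under all 9 other settings of the fit (log2 fold change 1.47 to 2.14, adjusted p 2.34e-08 to 0.0462), and *Col4a1* and *Col14a1* under 6 of 9 each. The direction of 26 of the 38 tested collagen genes never reversed, and 0 of the 3 called genes reversed. All genes called numbered 2242, against 3531 with DESeq2, 1726 with no filter, 2754 and 2144 with limma at pseudocounts of 1 and 0.1, 1922 with the replicate block, 916 with the GC correction and 542 with both. Collagen genes called lower numbered 2, against 1 with no filter on low counts, 0 with limma at either pseudocount (3 and 4 at p under 0.05 before adjustment, for pseudocounts of 1 and 0.1, where the share of all genes is not given), 1 with the GC correction and the replicate block together and 1 at the 2-fold rule. Those called higher numbered 1, against 4 with DESeq2, 3 with limma on log2(FPKM + 0.1) and 2 at the 2-fold rule. Genes that make, process or degrade collagen were 7 lower and 4 higher, against 16 and 8 with DESeq2, 4 lower with no filter, 3 and 1 with the GC correction, 0 higher with the GC correction and the block and 1 higher at the 2-fold rule. Marker genes were 3 lower and 3 higher, against 7 and 8 with DESeq2, 1 lower with no filter and with limma at either pseudocount, 0 and 1 with the GC correction, and 1 and 0 with the GC correction and the block. The causes of these moves were not tested.

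With 1 library left out, collagen calls ranged from 0 to 4 lower and from 0 to 3 higher, pathway calls from 0 to 25 lower and from 0 to 8 higher, and marker calls from 0 to 16 lower and from 0 to 8 higher, with the most calls in each without WT library 3. A group then holds 2 libraries. All genes called ranged from 8 without *Sirt6* KO library 1 to 4582 without WT library 3.

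Whether the replicate numbers pair the libraries could not be decided from 3 libraries per group. The correlations of same-numbered deviations were -0.106, 0.26 and 0.161, and those of different-numbered ones ran from -0.34 to 0.209. With the replicate number as a block, 2 collagen genes were called higher, *Col1a1* being added (edgeR adjusted p = 0.0390, against 0.0390 to 0.308 over the 9 settings), and *Col8a2* turned to 0.00736.

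Uncalled genes that reversed with the GC correction, and with the block added, were *Col15a1* (-0.13, -0.12), *Col16a1* (-0.21, -0.16), *Col18a1* (-0.22, -0.17), *Col5a3* (-0.23, -0.23), *Col6a2* (-0.031, -0.00603) and *Col7a1* (-0.16, -0.043). With limma at pseudocounts of 1 and 0.1, *Col13a1* (0.00449, 0.042), *Col4a4* (0.00805, 0.043) and *Col8a2* (0.012, 0.052) reversed. Leaving out 1 library gave ranges across 0 for *Col13a1* (-0.15 to 0.19), *Col15a1* (-0.18 to 0.23), *Col16a1* (-0.21 to 0.25), *Col18a1* (-0.19 to 0.19), *Col22a1* (-0.12 to 0.40), *Col4a4* (-0.16 to 0.20), *Col5a2* (-0.35 to 0.020), *Col5a3* (-0.12 to 0.19), *Col6a3* (-0.27 to 0.14), *Col7a1* (-0.098 to 0.64), *Col8a2* (-0.33 to 0.26) and the ratio of *Col5a1* to *Col5a2* (-0.12 to 0.11).

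Depth limits the 10 tested collagen genes with under 100 counts in every library, *Col2a1* and *Col17a1* having the fewest, and the 6 genes below the filter.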
